A study of Mus musculus with 6 samples.

Results

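The amino acid transporters of solute carrier families 1, 3, 7, 36, 38 and 43 were examined in mouse embryonic fibroblasts (MEFs) on their way to induced pluripotent stem cells, with and without activation of the kinase AKT. A gene was taken as a member if its GENCODE mouse symbol was Slc1a, Slc3a, Slc7a, Slc36a, Slc38a or Slc43a followed by a number and its product was a protein. This gave 42 of the 54331 genes listed, in 6 families on 17 chromosomes. The MEFs came from several male E13.5 embryos, mixed together, of an Oct4-EGFP transgenic mouse on a mixed background of C57BL/6, DBA/2 and ICR. All cells carried retroviral Oct4, Sox2 and Klf4 (OSK) together with AKT-MER (A), a myristoylated AKT fused to a modified estrogen receptor that is switched on by 4-hydroxytamoxifen (4OHT). In the OSKA + 4OHT group, 1 µM 4OHT was present from 3 days post infection (dpi), and in the OSKA − 4OHT group only the ethanol vehicle was added. RNA was taken from bulk cells of 3 wells per group at 10 dpi, which gave 6 libraries, here called vehicle wells 1 to 3 and 4OHT wells 1 to 3 by their replicate numbers. The wells were plated from transduced cells, and nothing in the sources used here says that they came from separate infections, so the p-values measure the spread between wells. No library of cells with 4OHT but without AKT-MER was analysed here, so an effect of 4OHT itself and of active AKT cannot be told apart in these libraries. The study compared OSK cells with and without 4OHT by colony counts and, at an earlier day, by microarray. It described the effects of 4OHT there as limited.

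Amino acids cross the plasma membrane through carriers that differ in their substrates and in what drives them. The SLC7 light chains are mostly exchangers and reach the cell surface bound by a disulfide bridge to a heavy chain, SLC3A2 (also named CD98 or 4F2hc) or SLC3A1, whereas the cationic amino acid carriers of SLC7 work alone. SLC1 and most SLC38 carriers use the sodium gradient, SLC36 carriers use protons, and several SLC38 and SLC36 members sit on the lysosome, where amino acids are sensed for mTORC1, a kinase complex downstream of AKT. In pluripotent cells and in proliferating cells generally, these carriers supply leucine, glutamine, arginine and cystine for protein, nucleotide and glutathione synthesis.

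Values are TPM, in which transcripts are corrected for their length and scaled to a common total, so that levels of different genes may be set side by side. Each library adds up to 1000000 TPM and the sequencing depth is unknown. Between 15814 and 18230 genes were above 0 in a library, and a value of 0 is given as listed at 0, since it need not mean that the gene was silent. Across all genes, the correlation between wells of a group was between 0.809 and 0.864. Of the 8 fibroblast markers, all were tested, with sums of 3134 to 3834 TPM in the OSKA − 4OHT group and 2946 to 3355 TPM in the OSKA + 4OHT group, and each was above 0 in every library. Within the list *Col3a1* (log2 fold change 1.23) and *Lum* (2.37) rose and *Col1a2* (-0.88) fell, which the sums do not show. Sums of the 8 pluripotent cell markers were 12.3 to 15.0 TPM and 50.1 to 63.3 TPM in these groups, those of the 6 epithelial markers 31.9 to 85.3 TPM and 153.0 to 160.4 TPM, and those of the 12 macrophage markers 164.9 to 206.7 TPM and 123.9 to 131.5 TPM. In bulk RNA, fewer cells of a type and less RNA per cell cannot be told apart. The libraries of vehicle well 3 and 4OHT well 3 stood apart. Of 16 genes of the epididymis, a list made after the values were seen, 8 (*Gpx5*, *Lcn5*, *Spag11b*, *Adam7*, *Defb15*, *Defb18*, *Defb41* and *Spink8*) lay between 245.7 and 3207 TPM in the former and between 26.7 and 232.6 TPM in the latter, and at most at 0.494 TPM in the other 4 libraries. The other 8 genes of the list did not show this pattern at such levels, being at most at 4.18 TPM in any library, and *Lcn8*, *Lcn9* and *Cst11* were listed at 0 in all. Values without these 2 libraries are given beside some of the members they move, and for the others in the next paragraph or the closing section.

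Of the 42 members, 26 had a mean of at least 1 TPM and were tested. *Slc7a11* and *Slc7a7* rose and *Slc7a2* fell in the OSKA + 4OHT group (limma-trend on log2(TPM + 0.5), Benjamini-Hochberg adjusted p under 0.05 over 15382 genes). All 3 belong to the SLC7 family, and all 3 changed by more than 1 on the log2 scale. These 3 of 26 tested members compare with 5.49% of all tested genes called in either direction, 3.52% higher and 1.97% lower, and 4.23% called with a change of more than 1. The groups did not overlap in 6 of the 26 members, 3 with higher and 3 with lower values in the OSKA + 4OHT group, against 28.2% of all tested genes. The fitted log2 fold change was above 0 in 13 tested members and below 0 in 13, with a median of 0.018 against 0.14 over all tested genes. The remaining 23 tested members did not pass. An unadjusted p under 0.05 was found for 5 of the 26 tested members, against 21.3% of all tested genes. With the replicate number as a block none of the members passed, and the same held without both libraries numbered 3. In the fit without these libraries, log2 fold changes of some members that did not pass moved by over 1.5 times with the same sign. Besides that of *Slc38a5*, they went from 2.03 to 1.19 for *Slc1a2*, from -0.30 to -0.20 for *Slc38a2*, from 0.37 to 1.07 for *Slc38a6*, from 0.11 to 0.82 for *Slc38a9*, from 0.38 to 0.64 for *Slc7a3*, from 0.21 to 0.42 for *Slc7a4*, from -0.31 to -0.53 for *Slc7a6* and from 0.51 to 0.83 for *Slc7a8*, and that of *Slc7a14* was near 0 in both fits (-0.074 and -0.010). The sign changed for *Slc36a4*, *Slc38a7*, *Slc43a2*, *Slc43a3* and *Slc7a5*. The summed TPM of all members was 598.1, 608.7 and 917.7 in vehicle wells 1 to 3 and 710.3, 677.4 and 667.4 in 4OHT wells 1 to 3. *Slc38a5* alone made up the excess in vehicle well 3. Without this gene, left out because of that level, the sums were 593.3, 602.3 and 609.0 TPM. In the OSKA + 4OHT group they were 704.4, 673.6 and 629.0 TPM, all higher. With *Slc3a2* left out as well, the sums were 466.8, 488.2 and 488.7 TPM against 543.0, 475.1 and 436.2 TPM, and the groups overlapped. These sums were not rescaled, and in such values tested genes in general leaned upward, by the median of 0.14 given above. That median became 0.043 with the trimmed mean of log ratios and -0.0047 with quantile normalization. Whether the member sums rose beyond this general shift was not tested.

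**Figure D1:**
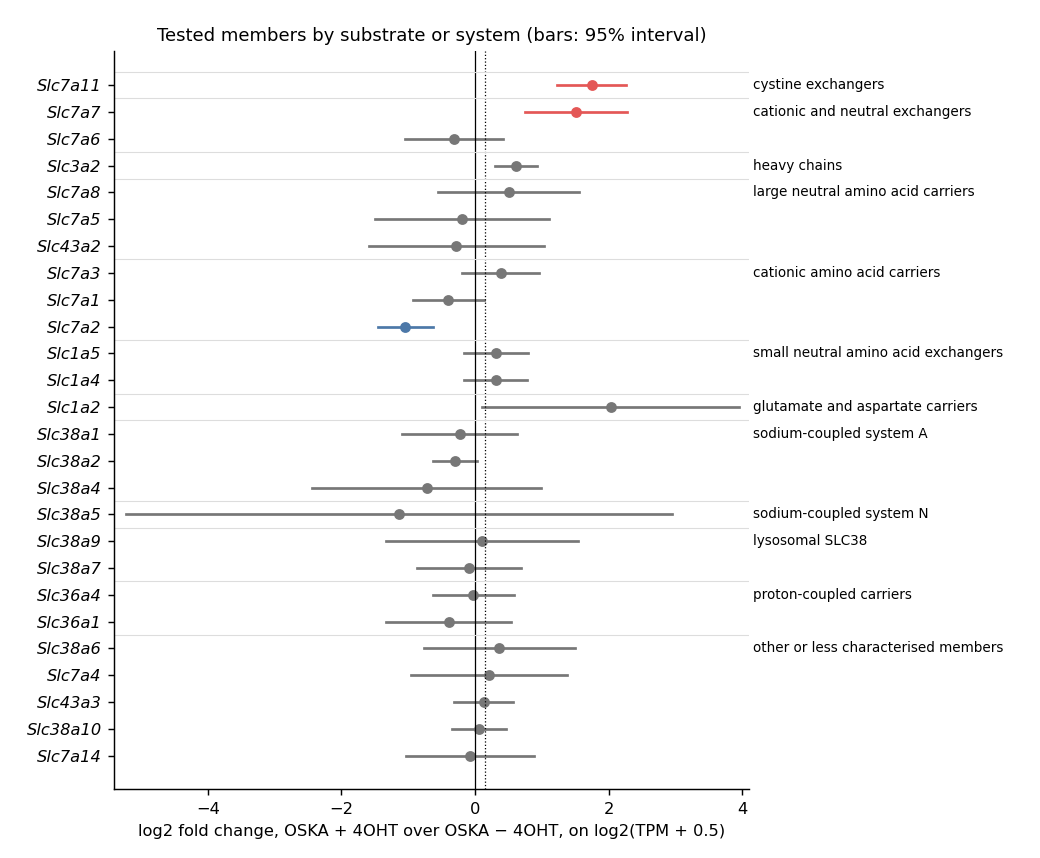
Log2 fold change of the 26 tested members, OSKA + 4OHT over OSKA − 4OHT (n = 3 wells each), on log2(TPM + 0.5), grouped by substrate or transport system; bars are 95% intervals, the dotted line is the median of all tested genes, red and blue mark members that passed with higher and lower values, and grey those that did not pass. *Slc7a11* (1.75) and *Slc7a7* (1.51) lie to the right of 0, *Slc7a2* (-1.05) lies to the left, and the interval of *Slc38a5* reaches from -5.22 to 2.95.

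Cystine is taken up by SLC7A11 (xCT), the light chain of system xc-, which exports glutamate in return and feeds glutathione synthesis. *Slc7a11* (ENSMUSG00000027737) lies on the minus strand of GRCm38 chromosome 3 from 49892526 to 50443614. Its level was 6.48, 7.90 and 5.56 TPM in vehicle wells 1 to 3 and 24.9, 25.5 and 19.9 TPM in 4OHT wells 1 to 3. The 4OHT wells were all above the vehicle wells. The mean rose 3.52 times, from 6.65 ± 1.18 to 23.4 ± 3.10 TPM (SD, n = 3 each), and the fitted log2 fold change was 1.75 (SE 0.216, limma-trend adjusted p = 0.0111). This was the smallest adjusted p of the members, at rank 187 of the 15382 genes. With 1 library left out the adjusted p from limma-trend was between 0.0313 and 0.0609, under 0.05 in 4 of 6 fits and lost without 4OHT well 1 (0.0609) or replicate 2 (0.0585), while the log2 fold change stayed between 1.64 and 1.87. With both libraries numbered 3 left out, the log2 fold change was 1.75 and the adjusted p 0.0767 from limma-trend. A stretch of 373 of the 9223 bases of its transcript is 96.2% identical, in reverse orientation, to *Tuba1b*, a tubulin. The other cystine carrier, *Slc7a9*, which pairs with SLC3A1, was listed at 0 in all libraries.

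The promoters of *Slc7a11*, *Slc7a7* and *Slc1a4* are shown because they were the only members' windows with the C/EBP-ATF response element (CARE, TGATGNAAN), a motif bound by ATF4 when amino acids run short. Sequences of 300 bases, from 250 before to 50 after a RefSeq start site on GRCm38.p6, were found for 31 of the 42 members, in 42 windows. The members without a window, which were not searched, included *Slc7a2*, *Slc7a5*, *Slc1a5*, *Slc7a3*, *Slc38a1* and *Slc43a3*. The only window of *Slc3a2* lay 9472 bases from the GENCODE start of the gene. The letters were searched on both strands, and a position is that of the first base of a match. CARE was present in 3.95% of all 32851 windows and in 4 windows of these 3 members. The FOXO motif (GTAAACA), named for factors that AKT phosphorylates, was in 3.65% of all windows and in those of *Slc7a11* and *Slc36a3*. The antioxidant response element (TGACNNNGC) was in 12.4% of all windows and in those of 5 members, and the E-box (CACGTG) in 7.15% and in those of 7 members. The window of *Slc7a11*, chr3:50443564-50443863 on the minus strand, held the FOXO letters in reverse (TGTTTAC) at 232 bases before the start site, CARE as written at 66 bases and CARE in reverse at 48 bases. That of *Slc7a7*, chr14:54417653-54417952 on the minus strand, held CARE at 243 bases before its start site, and is 1 of 2 windows of the gene with such a match. The other window, chr14:54417895-54418194, is not shown and held CARE at 141 bases (TGATGAAAG) and at 1 base (TGATGCAAC) before its own start site. These windows overlap, and the TGATGCAAC is the same genomic site in both. The remaining windows of *Slc7a7* held no CARE. That of *Slc1a4*, chr11:20332664-20332963 on the minus strand, held it in reverse at 5 bases before its start site. No match of the 4 motifs overlapped another in these 3 windows. Capitals mark the matches, which are letters found by search and not sites of measured binding.
Slc7a11: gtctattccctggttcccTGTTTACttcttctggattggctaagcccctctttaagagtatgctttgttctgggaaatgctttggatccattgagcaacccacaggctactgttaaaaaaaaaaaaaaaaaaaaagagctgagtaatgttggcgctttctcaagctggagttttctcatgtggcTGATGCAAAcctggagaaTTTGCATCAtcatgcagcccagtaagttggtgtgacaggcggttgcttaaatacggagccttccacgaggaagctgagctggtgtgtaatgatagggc
Slc7a7: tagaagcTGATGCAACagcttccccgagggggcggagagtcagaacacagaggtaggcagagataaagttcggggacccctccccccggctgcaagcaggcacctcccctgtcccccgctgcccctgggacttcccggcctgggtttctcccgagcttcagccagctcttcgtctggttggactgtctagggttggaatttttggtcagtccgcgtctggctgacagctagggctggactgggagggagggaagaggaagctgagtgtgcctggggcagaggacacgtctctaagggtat
Slc1a4: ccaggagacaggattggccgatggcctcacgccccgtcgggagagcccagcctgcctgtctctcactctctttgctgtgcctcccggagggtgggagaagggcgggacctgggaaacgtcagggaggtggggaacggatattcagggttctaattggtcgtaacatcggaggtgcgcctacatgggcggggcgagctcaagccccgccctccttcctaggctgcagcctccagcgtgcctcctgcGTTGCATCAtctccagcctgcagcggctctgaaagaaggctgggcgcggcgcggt

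System y+L exchangers export arginine and lysine and take up neutral amino acids with sodium. *Slc7a7* (y+LAT1, ENSMUSG00000000958, minus strand of chromosome 14, 54369442 to 54417780) was at 6.05, 7.14 and 6.26 TPM in vehicle wells 1 to 3 and at 31.2, 15.6 and 14.96 TPM in 4OHT wells 1 to 3. The groups did not overlap, and 4OHT well 1 was further above the other two wells of its group than these were above the vehicle wells. The mean rose from 6.48 ± 0.580 to 20.6 ± 9.20 TPM (SD, n = 3 each), with a log2 fold change of 1.51 (SE 0.319, limma-trend adjusted p = 0.0492). This call stood at the edge of the threshold: the adjusted p from limma-trend was between 0.0808 and 0.121 in the 6 fits that left out 1 library, 0.16 without both libraries numbered 3, and also above 0.05 under most other settings tried. The log2 fold change was between 1.18 and 1.70 in those 6 fits and 1.675 without both libraries numbered 3. SLC7A7 is abundant in macrophages. Of the 12 macrophage markers, none was at 0 in all libraries, 3 had a log2 fold change above 0, and the median was -0.40. One of them passed, *Lyz2*, a lysozyme and the most abundant of the list, which fell from 101.2, 90.1 and 94.3 TPM to 48.2, 46.5 and 60.7 TPM (log2 fold change -0.88, limma-trend adjusted p = 0.0299). The part of macrophages in the *Slc7a7* level was not tested. *Slc7a7* shares 232 bases with *Oxa1l* on the opposite strand, which reached 62.7 TPM and had a log2 fold change of -0.57. *Slc7a6* (y+LAT2), the other member of the system, was at 58.5, 48.7 and 45.9 TPM in vehicle wells 1 to 3 and 52.7, 25.5 and 50.2 TPM in 4OHT wells 1 to 3. Its groups overlapped (log2 fold change -0.31, SE 0.304, limma-trend adjusted p = 0.597), and only 4OHT well 2 was low.

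*Slc3a2*, the heavy chain of most SLC7 light chains, was the most abundant member apart from *Slc38a5* in vehicle well 3. It lies on the minus strand of chromosome 19 (ENSMUSG00000010095, 8706882 to 8723369). Values were 126.5, 114.0 and 120.3 TPM in vehicle wells 1 to 3 and 161.4, 198.6 and 192.9 TPM in 4OHT wells 1 to 3. All 4OHT wells were above all vehicle wells, at means of 184.3 ± 20.1 and 120.3 ± 6.22 TPM (SD, n = 3 each). The log2 fold change of 0.61 (SE 0.130, 95% interval 0.29 to 0.92) missed the threshold, with a limma-trend adjusted p of 0.0512. It was 0.0437 with a minimum mean of 5 TPM, 0.0491 with a pseudocount of 0.1 and 0.0476 with robust empirical Bayes, and between 0.0865 and 0.170 with 1 library left out. Only these 3 of 17 alternatives passed. The limma-trend adjusted p was 0.101 with the trimmed mean of log ratios, 0.0819 with quantile normalization and 0.202 without both libraries numbered 3. *Slc3a1*, the heavy chain of kidney and gut, was listed at 0 in 5 libraries and at 0.457 TPM in vehicle well 2.

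**Figure D2:**
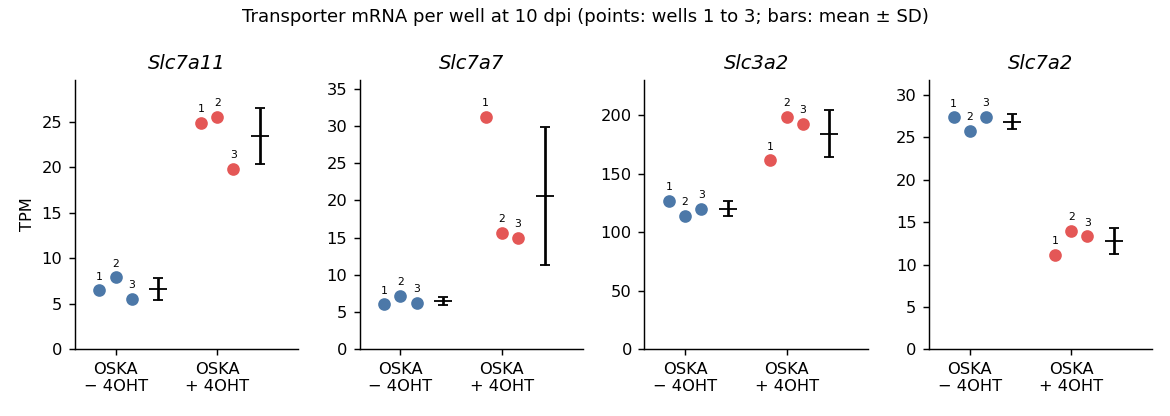
TPM of *Slc7a11*, *Slc7a7*, *Slc3a2* and *Slc7a2* in each well (points, numbered by replicate) of the OSKA − 4OHT (blue) and OSKA + 4OHT (red) groups at 10 dpi, with the mean and SD as black bars; each axis starts at 0. The groups do not overlap in any of the 4 panels, and *Slc7a7* shows the widest spread relative to its mean, with 31.2 TPM in 4OHT well 1 and 14.96 TPM in 4OHT well 3.

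The make-up of the light chain mRNA that can pair with SLC3A2 (*Slc7a5*, *Slc7a6*, *Slc7a7*, *Slc7a8*, *Slc7a10* and *Slc7a11*) is given as a description, since a share of one gene depends on all the others. Together the light chains had 86.4, 79.1 and 106.8 TPM in vehicle wells 1 to 3 and 140.7, 84.6 and 100.6 TPM in 4OHT wells 1 to 3, with overlapping groups. *Slc7a11* was 7.49%, 9.99% and 5.20% of this sum in the former and 17.7%, 30.2% and 19.7% in the latter. *Slc7a7* was 6.998%, 9.03% and 5.86% against 22.2%, 18.4% and 14.9%. Both shares were higher in every 4OHT well. *Slc7a6*, a large part of the sum in every well, had 67.7%, 61.6% and 42.95% against 37.5%, 30.1% and 49.9%, and its groups overlapped. The ratio of *Slc3a2* to the summed light chains was 1.46, 1.44 and 1.13 against 1.147, 2.35 and 1.92, also with overlap.

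**Figure D3:**
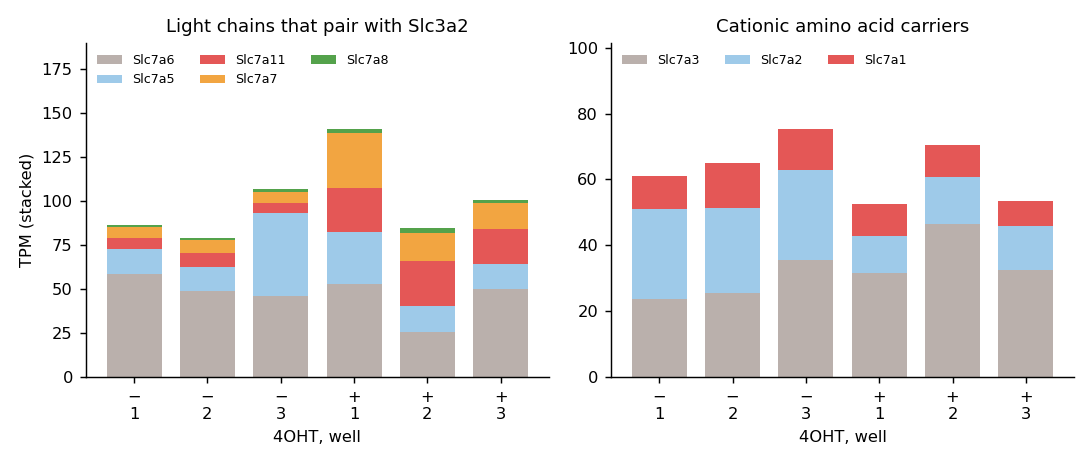
Stacked TPM of the light chains that pair with SLC3A2 (left; *Slc7a10* was listed at 0) and of the cationic amino acid carriers (right) in each well, OSKA − 4OHT (−) and OSKA + 4OHT (+), replicates 1 to 3. The *Slc7a11* segment grows from at most 7.90 TPM to at least 19.9 TPM, and the *Slc7a2* segment shrinks from at least 25.8 TPM to at most 14.0 TPM.

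The cationic amino acid carriers bring in arginine, lysine and ornithine without sodium. *Slc7a2* (CAT2, ENSMUSG00000031596, plus strand of chromosome 8, 40862396 to 40922308) had 27.3, 25.8 and 27.4 TPM in vehicle wells 1 to 3 and 11.1, 14.0 and 13.3 TPM in 4OHT wells 1 to 3. The wells of each group lay close together and far from those of the other. The mean fell from 26.8 ± 0.906 to 12.8 ± 1.51 TPM (SD, n = 3 each), with a log2 fold change of -1.05 (SE 0.171, limma-trend adjusted p = 0.0244). No single library set the size of this change, which was from -1.11 to -0.95 with 1 library left out, but none of these 6 smaller fits passed (adjusted p 0.0618 to 0.0884 from limma-trend). Without both libraries numbered 3 it was -1.06, with an adjusted p of 0.131. On the opposite strand *Gm26584* overlaps *Slc7a2*, over 475 bases of a short transcript, and reads of the pair can be told apart only if the counting used strand. *Slc7a3* (CAT3) had 23.6, 25.5 and 35.5 TPM against 31.7, 46.6 and 32.6 TPM, and *Slc7a1* (CAT1), the widely expressed form, 12.1 ± 1.86 against 9.07 ± 1.28 TPM (SD, n = 3 each). Neither passed: the log2 fold change was 0.38 (adjusted p = 0.423, and from 0.21 to 0.56 with 1 library left out) for *Slc7a3* and -0.40 (adjusted p = 0.359) for *Slc7a1*, whose groups did not overlap. The sum of the 3 carriers was 61.2, 65.1 and 75.2 TPM against 52.6, 70.4 and 53.5 TPM, with overlap. Within it, *Slc7a2* had shares of 44.7%, 39.6% and 36.4% in vehicle wells 1 to 3 and 21.1%, 19.8% and 24.9% in 4OHT wells 1 to 3. *Slc7a3* had 38.7%, 39.1% and 47.3% against 60.2%, 66.3% and 60.9%, so that the order of these 2 carriers was not the same in all vehicle wells and was *Slc7a3* above *Slc7a2* in all 4OHT wells.

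Leucine and other large neutral amino acids enter mainly by exchange through SLC7A5 (LAT1). *Slc7a5* had 14.3, 14.1 and 47.5 TPM in vehicle wells 1 to 3 and 29.9, 15.2 and 14.1 TPM in 4OHT wells 1 to 3. One well of each group stood above the rest, and the log2 fold change of -0.19 (SE 0.542, limma-trend adjusted p = 0.874) turned to 0.38 without vehicle well 3 and to 0.57 without both libraries numbered 3. The whole gene lies within *Gm20388* on the opposite strand, which reached 128.8 TPM. *Slc43a2* (LAT4), which lets these amino acids leave by facilitated diffusion, was similarly uneven, at 29.95, 12.7 and 19.3 TPM against 35.3, 11.2 and 10.2 TPM (log2 fold change -0.28, adjusted p = 0.806). That log2 fold change was from -0.84 to 0.033 with 1 library left out and 0.027 without both libraries numbered 3. *Slc7a8* (LAT2) was low, at 1.29 ± 0.260 against 2.09 ± 0.707 TPM (SD, n = 3 each), and did not pass (log2 fold change 0.51, adjusted p = 0.560). None of the 3 tested carriers of this class passed.

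Small neutral amino acids are exchanged by SLC1A4 (ASCT1, alanine, serine and cysteine) and SLC1A5 (ASCT2, a main route for glutamine). *Slc1a5* had 25.6, 33.9 and 25.3 TPM in vehicle wells 1 to 3 and 30.2, 40.6 and 34.6 TPM in 4OHT wells 1 to 3. *Slc1a4*, one of the genes with CARE letters in its window, had 20.4, 22.0 and 16.9 TPM against 27.7, 25.6 and 20.7 TPM. The groups overlapped for both genes, and the log2 fold changes of 0.32 (SE 0.198, adjusted p = 0.426) and 0.31 (SE 0.196, adjusted p = 0.428) did not pass. Among the glutamate and aspartate carriers, only *Slc1a2* (GLT-1) was tested. It was low and scattered, at 1.18, 0.167 and listed at 0 TPM against 3.52, 0.957 and 6.05 TPM, with a log2 fold change of 2.03, a SE of 0.798 and a limma-trend adjusted p of 0.213. *Slc1a3* (GLAST), at a mean below the minimum for a test, was at most 0.191 TPM in the OSKA − 4OHT group and at 1.97, 1.19 and 1.21 TPM in the OSKA + 4OHT group.

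System A carriers take up alanine, serine and glutamine with sodium. *Slc38a2* (SNAT2), the classical carrier raised by amino acid shortage, was the most abundant of them (ENSMUSG00000022462, minus strand of chromosome 15, 96687392 to 96699730). It had 75.3, 80.8 and 80.1 TPM in vehicle wells 1 to 3 and 69.4, 66.5 and 56.5 TPM in 4OHT wells 1 to 3. The 4OHT wells were all lower, but the log2 fold change of -0.30 (SE 0.138, 95% interval -0.63 to 0.035) did not pass (limma-trend adjusted p = 0.283). *Slc38a1* (SNAT1) had 20.3, 45.5 and 21.5 TPM against 24.6, 27.7 and 17.9 TPM (log2 fold change -0.23, adjusted p = 0.748). Its high value came from vehicle well 2, and 1450 of its bases are 96.6% identical to *4632432E15Rik*, so that reads could be split between the genes. *Slc38a4* (SNAT4) ranged from 2.71 to 17.4 TPM in the OSKA − 4OHT group and from 2.68 to 8.80 TPM in the OSKA + 4OHT group (log2 fold change -0.72, adjusted p = 0.601, and from -1.41 to -0.17 with 1 library left out). The summed system A level was 112.9, 129.0 and 111.1 TPM against 97.8, 96.9 and 83.2 TPM, lower in every 4OHT well.

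*Slc38a5* (SNAT5) exchanges glutamine, asparagine and histidine for protons as part of system N. It lies on the plus strand of chromosome X (ENSMUSG00000031170, 8271133 to 8280179). Its level was 4.74, 6.43 and 308.7 TPM in vehicle wells 1 to 3 and 5.93, 3.73 and 38.4 TPM in 4OHT wells 1 to 3. The high wells were the pair in which those 8 genes of the epididymis were high, and in vehicle well 3 this 1 gene made up 33.6% of the TPM of all members. The ratio of vehicle well 3 to 4OHT well 3 was 8.05 for *Slc38a5* and between 4.89 and 15.0 for the 8 epididymal genes. The part of that RNA in the *Slc38a5* level was not tested. The log2 fold change of -1.14 (SE 1.695, limma-trend adjusted p = 0.739) became 0.76 without vehicle well 3 and -0.21 without both libraries, with means of 5.59 and 4.83 TPM in the remaining vehicle and 4OHT wells. *Slc1a1* (EAAC1), a glutamate carrier below the minimum for a test, was above 0 only in the same libraries, at 2.49 and 0.695 TPM. This level is uncertain, since 2636 of the 2665 bases of its transcript align at 99.96% identity with *4430402I18Rik* on the opposite strand, which reached 2.91 TPM. *Slc38a3* (SNAT3), the other system N carrier, was at most 0.319 TPM in the OSKA − 4OHT group and at 2.70, listed at 0 and 1.94 TPM in the OSKA + 4OHT group.

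**Figure D4:**
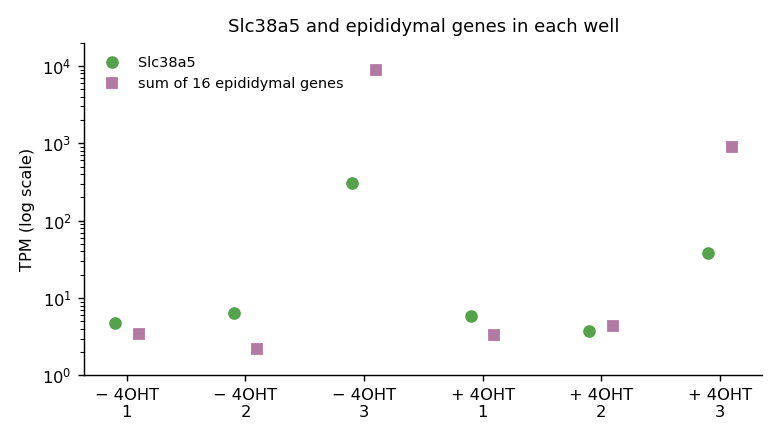
TPM of *Slc38a5* (circles) and the summed TPM of 16 epididymal genes (squares) in each well, on a log axis, replicates 1 to 3 of OSKA − 4OHT (−) and OSKA + 4OHT (+). Both are high in the wells numbered 3, with *Slc38a5* at 308.7 and 38.4 TPM and the epididymal genes at 8772 and 897.3 TPM, and low in the other 4 wells.

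Lysosomal and proton-coupled carriers were all without a call. *Slc38a9*, the arginine-gated carrier that signals to mTORC1, had 2.24 ± 1.19 against 2.72 ± 2.17 TPM, and *Slc38a7* (SNAT7), which exports glutamine from lysosomes, 13.0 ± 3.15 against 12.5 ± 4.24 TPM (SD, n = 3 each). *Slc36a4* (PAT4) had 10.8 ± 2.22 against 10.6 ± 2.47 TPM (SD, n = 3 each). *Slc36a1* (PAT1) had 7.96 ± 4.60 against 5.40 ± 0.324 TPM (SD, n = 3 each), with 13.3 TPM in vehicle well 2 and 4.96 to 5.77 TPM in the other 5 wells. Adjusted p-values of these 4 genes were between 0.604 and 0.9747 from limma-trend, and their log2 fold changes all changed sign when single libraries were left out.

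Among the members whose substrates are less settled, *Slc38a10* and *Slc43a3* were the most abundant. *Slc38a10* had 64.3, 62.5 and 54.02 TPM in vehicle wells 1 to 3 and 73.4, 61.6 and 54.3 TPM in 4OHT wells 1 to 3 (log2 fold change 0.059, 95% interval -0.34 to 0.46, limma-trend adjusted p = 0.875). *Slc43a3*, described as a purine nucleobase carrier rather than one for amino acids, had 26.2, 29.3 and 24.2 TPM against 26.5, 26.3 and 34.9 TPM (log2 fold change 0.13, 95% interval -0.32 to 0.57, adjusted p = 0.729). Both estimates were within 0.1 of the median of all tested genes and turned below 0 after quantile normalization. *Slc38a6* had 10.1 ± 6.10 against 12.0 ± 3.55 TPM (SD, n = 3 each), and it shares long stretches, over 3260 bases at 98.3% identity with *Gm42860*, with many other genes, so its level is uncertain. *Slc7a4* (1.55 ± 0.421 against 1.97 ± 1.05 TPM) and *Slc7a14* (1.67 ± 0.0603 against 1.57 ± 0.289 TPM, SD, n = 3 each) were low. None of these 5 passed.

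The other 16 members were not tested, with a highest value of 2.70 TPM in any library. Of these, 8 were listed at 0 in all libraries: *Slc7a9*, *Slc7a10*, *Slc7a12*, *Slc7a15*, *Slc36a2*, *Slc36a3*, *Slc38a8* and *Slc38a11*. The 8 with a value above 0 were *Slc1a1*, *Slc1a3*, *Slc3a1* and *Slc38a3*, given above, and *Slc1a6*, *Slc1a7*, *Slc7a13* and *Slc43a1*. *Slc1a6* was at 1.67 TPM in vehicle well 2 alone and *Slc7a13* at 0.758 TPM in vehicle well 1 alone. *Slc43a1* (LAT3) was at 0.461 and 0.395 TPM in vehicle wells 1 and 2, and *Slc1a7* at 0.464 TPM in vehicle well 1 and 0.298 TPM in 4OHT well 2. In the fit with no filter on low genes, none of these 8 passed and 1, *Slc1a3*, had an unadjusted p under 0.05 (log2 fold change 1.69, limma-trend adjusted p = 0.0962).

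Lists of related genes were read from the same fit. Of 26 other amino acid carriers found, 17 were tested, and 1 rose and 1 fell, against 5.49% of all tested genes called in either direction. An unadjusted p under 0.05 was found for 5 of the 17, against 21.3% of all tested genes. *Slc6a14* (ATB0,+), a sodium- and chloride-driven carrier of neutral and cationic amino acids, was listed at 0 in all OSKA − 4OHT libraries and at 4.55, 4.37 and 4.65 TPM in 4OHT wells 1 to 3, so no fold is given (limma-trend adjusted p = 0.0162). It reached the minimum mean only through the OSKA + 4OHT group, so its call is not independent of that filter. With the vehicle wells at the floor, its fitted log2 value ran from 1.71 to 5.53 over the alternatives. The call held in 3 of 6 fits with a library removed. *Sfxn3*, a mitochondrial serine carrier, fell from 109.6, 123.6 and 134.7 TPM to 72.6, 78.1 and 64.7 TPM (log2 fold change -0.77, limma-trend adjusted p = 0.0360), a call that none of those 6 fits kept. Its log2 fold change stayed between -0.85 and -0.69 in these fits.

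Of the 36 genes of amino acid sensing by mTORC1, all tested, 1 rose and none fell, a share below the 5.49% of all tested genes, and 5 had an unadjusted p under 0.05, also below the 21.3% of all tested genes. *Sesn3*, a sestrin that restrains mTORC1 through GATOR2, rose from 17.1, 17.8 and 17.4 TPM to 37.0, 40.0 and 32.4 TPM (log2 fold change 1.04, SE 0.158, limma-trend adjusted p = 0.0191), and its adjusted p stayed under 0.05 in 1 of the 6 fits with a library left out. In these fits its log2 fold change was between 0.97 and 1.12. *Mtor*, the kinase itself, had 11.04, 11.3 and 18.3 TPM against 10.5, 9.94 and 23.5 TPM (log2 fold change 0.036, adjusted p = 0.974), with the highest level of each group in the libraries numbered 3. None of the 26 genes of the ATF4 and amino acid deprivation response passed with limma-trend, against 5.49% of all tested genes, and 9 of them had an unadjusted p under 0.05, against 21.3%. *Atf4*, the transcription factor of that response, is regulated largely by translation, and its mRNA was at 107.5, 131.5 and 74.6 TPM against 122.2, 103.4 and 85.2 TPM (log2 fold change 0.0097, SE 0.247, adjusted p = 0.990). None of the 20 cytosolic aminoacyl-tRNA synthetases passed with limma-trend either, and 6 of them had an unadjusted p under 0.05, against the same 21.3%. The median log2 fold changes of the 4 lists were 0.24, 0.28, 0.085 and 0.31 in the order given, against 0.14 over all tested genes.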

How the data were processed

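The authors trimmed 50-base single-end reads of stranded polyA libraries with Trim Galore, quantified them with Salmon and deposited TPM per gene and well; versions, annotation release and Salmon's strand setting were not given in the sources used here. The deposited table also holds the authors' own comparison, which was not used. Symbols and positions came from GENCODE M21 on GRCm38 by Ensembl identifier (54097 of 54331 genes matched). The study used edgeR, which needs counts, so limma-trend (limma 3.58.1, R 4.3.3) was run on log2(TPM + 0.5) for the 15382 genes that averaged 1 TPM or more, without a block, with Benjamini-Hochberg adjustment. Fold changes on this scale understate changes of low genes. On simulated data, 100 of 15380 genes were changed by 1 and another 100 by 2 on the log2 scale. Of these, 9% and 38% were recovered, with 2 false calls. This changed share was smaller than the 5.49% of genes called in the data. The adjustment depends on that share, so these percentages are not the power of the test in these data. An exact 2-sided permutation test of 1 gene cannot go below 0.1 with 3 wells against 3. Similar transcripts (at least 95% identity over 200 bases) were found with BLAST 2.17.0, and tables were made with Python 3.11.15 and pandas 2.3.3. Every member is accounted for. Per-well values are given for members that passed or had a mean of at least 20 TPM in a group, and for others where single wells set the mean. From the related lists, the genes with the largest passing changes, *Atf4* and *Mtor* are named. *Slc66a1* was not matched. *Lyz2* and the genes overlapping or similar to members were named for the results they stand beside. Members and lists were chosen with earlier results of these data known. Alternatives were other filters, pseudocounts, scalings, variance models, a replicate block and leaving out each library. Leaving out both libraries numbered 3 was added after seeing the data.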

Additional observations from a re-analysis of the deposited data

How the results depend on the processing

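Of the 26 tested members, 13 kept the sign of their log2 fold change in every one of the 17 alternatives that tested them (*Slc1a2*, *Slc7a8* and *Slc7a14* were below the minimum of 5 TPM), *Slc7a11*, *Slc7a7*, *Slc7a2* and *Slc3a2* among them. The count of members that rose went from 2 to 3 with a minimum of 5 TPM or a pseudocount of 0.1, where *Slc3a2* was added, to 1 with no filter on low genes, with a pseudocount of 1 or 2, with either scaling (trimmed mean of log ratios, quantile normalization) and without a mean-variance trend, where *Slc7a7* was the one lost, and to 0 with the replicate block. *Slc7a7* also missed the threshold with robust empirical Bayes, where *Slc3a2* passed. With 1 library left out, the members that rose numbered 0 to 1 and those that fell 0, over all genes 112 to 318 and 63 to 147. These fits have fewer samples. Residuals of wells with the same number correlated at 0.024, 0.034 and 0.084, so the numbers were not taken to pair the wells, although 5 of the 6 wells correlated best with the well of their own number, a hint from the data and not from the design. The epididymal genes that were high only in the libraries numbered 3 are a further tie between wells of equal number. Whether equal numbers mark paired wells is not stated in the sources used here. With the replicate block 0 members rose and 0 fell (limma-trend adjusted p 0.0640 for *Slc7a11*, 0.116 for *Slc7a2* and 0.135 for *Slc7a7*), over all genes 31 and 16, and the other carriers (0 higher, 0 lower) and the mTORC1 list (0 higher) lost their calls. Without both libraries numbered 3, 0 members and 0 genes of these lists passed in either direction (53 higher and 31 lower over all genes). The scalings moved the median of all tested genes from 0.14 to 0.043 and -0.0047 and that of the members from 0.018 to -0.091 and -0.20, and the calls over all genes from 542 higher and 303 lower to 457 and 434, and 428 and 434. The median of the members was 0.17 without vehicle well 3 and 0.15 without both libraries numbered 3. The ATF4 list had 1 higher gene with a minimum of 5 TPM and 1 lower gene with each scaling. The other carriers had 0 higher with a minimum of 5 TPM, which *Slc6a14* did not reach, and 0 lower without a mean-variance trend. With 1 library left out, the counts were 0 to 1 higher for the ATF4 list, 0 to 1 higher for the mTORC1 list, and 0 to 2 higher and 0 lower for the other carriers.

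Uncalled log2 fold changes that crossed 0 with 1 library left out ranged from -0.64 to 0.023 for *Slc36a1*, -0.20 to 0.13 for *Slc36a4*, -0.44 to 0.14 for *Slc38a1*, -0.055 to 0.16 for *Slc38a10*, -2.18 to 0.76 for *Slc38a5*, -0.028 to 0.80 for *Slc38a6*, -0.31 to 0.19 for *Slc38a7*, -0.41 to 0.49 for *Slc38a9*, -0.84 to 0.033 for *Slc43a2*, -0.0039 to 0.20 for *Slc43a3*, -0.12 to 0.41 for *Slc7a4*, -0.53 to 0.38 for *Slc7a5*, -0.50 to 0.020 for *Slc7a6*, -0.35 to 0.27 for *Mtor* and -0.21 to 0.19 for *Atf4*. After quantile normalization the values that crossed 0 were -0.069 for *Slc38a10*, -0.21 for *Slc38a9*, -0.0091 for *Slc43a3*, -0.13 for *Slc7a4*, -0.14 for *Mtor* and -0.081 for *Atf4*, and with the trimmed mean of log ratios -0.052 for *Slc38a10*, -0.070 for *Mtor* and -0.10 for *Atf4*. Without both libraries numbered 3 they were 0.22 for *Slc36a4*, 0.024 for *Slc38a7*, 0.027 for *Slc43a2*, -0.069 for *Slc43a3*, 0.57 for *Slc7a5*, -0.12 for *Mtor* and -0.081 for *Atf4*. The cause of these shifts was not tested. Depth, which the values do not keep, limits what can be said of members under a few TPM.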
